A study of Mus musculus with 6 samples.

Results

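The miR-17~92 cluster is a group of 6 microRNA hairpins cut from a single primary transcript, and each hairpin can release a mature strand from its 5p arm and another from its 3p arm. Its strands were taken from the table by name, as every mature miRNA whose name begins with one of the 6 stems mmu-miR-17, mmu-miR-18a, mmu-miR-19a, mmu-miR-20a, mmu-miR-19b and mmu-miR-92a, whichever arm it comes from. This gave 10 of the 535 mature miRNAs, and all 10 were among the 525 that passed the filter on low counts, a sum of more than 10 counts over all libraries. The miR-19a-5p, miR-19b-1-5p, miR-19b-2-5p and miR-92a-2-5p strands were not analysed here.

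A mature miRNA guides a silencing complex to messenger RNAs that pair with its seed, the short stretch near its 5′ end, and lowers their translation and stability. Strands that share a seed are grouped as a family, and the cluster holds members of the miR-17, miR-18, miR-19 and miR-92 families. The cluster is best known for promoting proliferation and survival of progenitor cells in several organs, among them the nephron progenitors that form the filtering units of the kidney, and mammals carry related clusters on chromosomes of their own.

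Small RNA was sequenced from kidneys of CD1 mouse embryos at embryonic day 15.5, all wildtype, with 3 libraries of nephron progenitors (MNP1, MNP2, MNP6) and 3 of whole kidney (MWK1, MWK2, MWK6). Where 3 values stand in a row without library names, they keep that order. The embryos came from 3 litters. Whether a nephron progenitor library and a whole kidney library share a litter is not stated, and the groups were compared unpaired in the main tests. Nephron progenitors were a cell fraction enriched by negative selection: kidneys were digested to a limited degree, and cells carrying CD140a (stroma), CD105 (endothelium), Epcam (epithelium) or Ter119 (erythroid cells) were removed with magnetic beads. Whole kidney was the tissue left over from that digestion, so cell content and isolation cannot be told apart in any comparison of the groups. The sources differ on the RNA kit of whole kidney, the miRNeasy Micro Kit in the labels as for nephron progenitors and the Mini Kit in the study's methods; if it was the Mini Kit, the kit cannot be told apart from the groups either. MNP6 and MWK6 carry a number that no single sample title has, and they entered as members of their groups with no replicate number.

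Total counts were 393951 in MNP1, 436113 in MNP2 and 333850 in MNP6, and 349241 in MWK1, 360221 in MWK2 and 355848 in MWK6. At this depth 3 counts, taken as the floor for detection, correspond to 6.53 to 9.44 CPM (counts per 1000000 of the library's total, scaled by the trimmed mean of M values, TMM). The nephron progenitor libraries differed more among themselves than the whole kidney libraries did: the chi-square per degree of freedom was 16.8 to 43.9 for pairs of the former and 2.47 to 6.91 for pairs of the latter. MNP1 was the highest nephron progenitor library for 8 of the 10 strands, and fold changes that moved most without it are given both ways. How often MNP1 was the highest over all miRNAs was not counted, so this is not shown to be particular to the cluster. Fold changes are on the log2 scale, nephron progenitors minus whole kidney, with their standard error (SE) and an adjusted p from edgeR; means are given ± SD over the 3 libraries of a group.

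The 6 hairpins lie on the plus strand of chromosome 14 (mm10), from 115043671 to 115044506, a span of 836 bases. Their order is mir-17 (115043671 to 115043754), mir-18a (115043851 to 115043946), mir-19a (115044000 to 115044081), mir-20a (115044157 to 115044263), mir-19b-1 (115044305 to 115044391) and mir-92a-1 (115044427 to 115044506). The spaces between neighbours shorten along the transcript after mir-20a, to 41 bases before mir-19b-1 and 35 bases before mir-92a-1, from 96, 53 and 75 bases before mir-18a, mir-19a and mir-20a. All 6 lie within exon 2 (115043271 to 115046727) of the 2 exons of Mir17hg, a long intergenic noncoding RNA at 115042879 to 115046727 in GENCODE. Of the 10 strands, 8 can come from this locus alone. The same mature miR-19b-3p and miR-92a-3p can also come from mir-19b-2 (52741983 to 52742066) and mir-92a-2 (52741838 to 52741928) on the minus strand of chromosome X, and their counts do not say which locus made them.

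**Figure D1:**
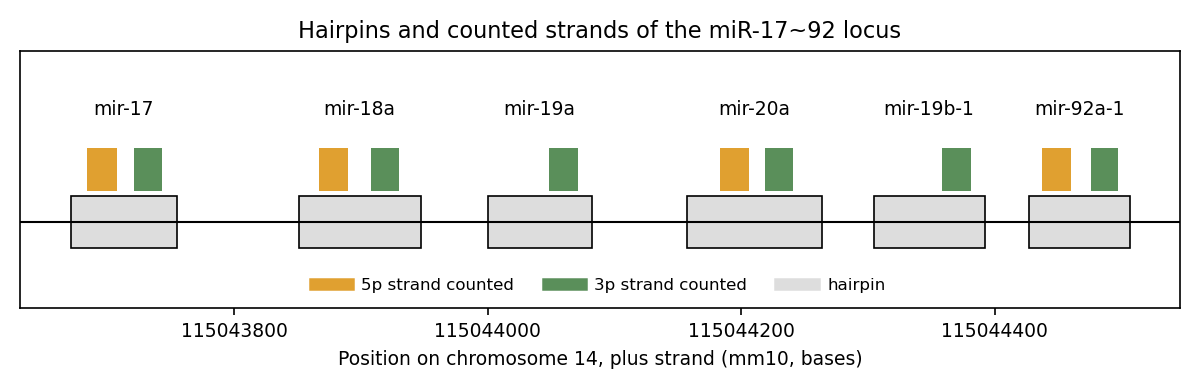
Map of the 6 hairpins (grey boxes) on the plus strand of chromosome 14, drawn to scale in bases of mm10, with the counted 5p strands (orange) and 3p strands (green) above. Both strands were counted for mir-17, mir-18a, mir-20a and mir-92a-1, and the 3p strand alone for mir-19a and mir-19b-1.

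As a whole, the cluster's levels overlapped between the groups. Its 10 strands held 12239 counts in MNP1, 10124 in MNP2 and 8078 in MNP6, and 8348 in MWK1, 7709 in MWK2 and 9625 in MWK6. As a share of all counts this was 3.11% (Wilson 95% interval 3.05 to 3.16%), 2.32% (2.28 to 2.37%) and 2.42% (2.37 to 2.47%) in the nephron progenitor libraries, and 2.39% (2.34 to 2.44%), 2.14% (2.09 to 2.19%) and 2.70% (2.65 to 2.76%) in whole kidney. Intervals and the floor cover counting error only, since reads copied by PCR are not independent molecules. In summed CPM the libraries stood at 30127, 22049 and 21223 for nephron progenitors and 25097, 24268 and 28128 for whole kidney. MNP1 lay above every whole kidney library, MNP2 and MNP6 lay below every one, and the groups therefore overlapped. The means were 24466 ± 4919 and 25831 ± 2032 CPM, a ratio of 0.947 (log2 ratio -0.078, exact two-sided permutation p = 0.6, where 3 libraries against 3 allow no p below 0.1). Without MNP1 the log2 ratio was -0.25, and with library totals in place of TMM it was 0.12, so its direction depends on the scaling, which moved the median of all tested miRNAs by 0.20. In bulk RNA, fewer cells of a type and less of an RNA per cell cannot be told apart, here or in the results that follow.

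Against this level, 2 of the 10 strands were past an adjusted p of 0.05, both lower in nephron progenitors, 0 were higher and 8 did not pass. Of the 525 miRNAs tested, 36.6% passed, 102 (19.4%) higher and 90 (17.1%) lower, so the share of cluster strands that were lower was near that of all miRNAs. With library totals the tally was 0 lower and 1 higher, since miR-18a-5p and miR-19a-3p did not pass and miR-92a-1-5p did, and over all tested it was 121 higher and 74 lower. The groups did not overlap for 3 of the 10 strands, against 46.7% of all tested. The median fold change of the strands was -0.18, with a range of -0.69 to 0.77, against a median of -0.012 over all tested. At an unadjusted p under 0.05 edgeR had 3 of the 10 strands and 219 (41.7%) of all 525 miRNAs. The 2 strands past the threshold, mmu-miR-18a-5p and mmu-miR-19a-3p, are of intermediate abundance, and the 2 most abundant strands, mmu-miR-92a-3p and mmu-miR-20a-5p, were not past it.

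**Figure D2:**
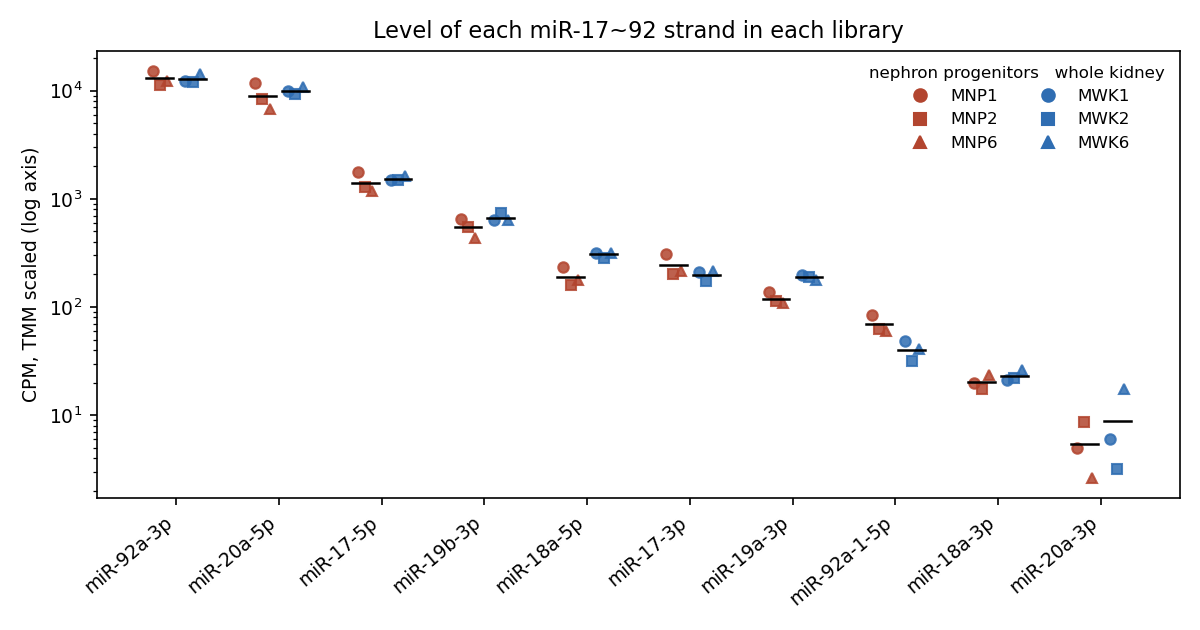
Level of each of the 10 strands in each library, in TMM-scaled CPM on a log axis, with nephron progenitors in red, whole kidney in blue, 1 symbol per library and a black line at each group's mean. The nephron progenitor libraries all lie below whole kidney for miR-18a-5p and miR-19a-3p and above it for miR-92a-1-5p.

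The strands stood at unlike levels, from 12949 ± 1973 CPM for miR-92a-3p to 20.3 ± 3.15 CPM for miR-18a-3p in nephron progenitors, with miR-20a-3p lower still but near the floor. Ordered by mean CPM in nephron progenitors, miR-92a-3p and miR-20a-5p came first, with ranges that overlapped, followed by miR-17-5p and miR-19b-3p, each apart from its neighbours. Next came miR-17-3p and miR-18a-5p, whose ranges overlapped, and then miR-19a-3p, miR-92a-1-5p, miR-18a-3p and miR-20a-3p in steps that did not overlap. In whole kidney the order was the same except that miR-18a-5p stood above miR-17-3p, and the only neighbours whose ranges overlapped were miR-17-3p and miR-19a-3p. Together miR-92a-3p and miR-20a-5p held 87.9 to 89.6% of the cluster's counts in every library. These orders compare counts of different sequences, and the efficiency with which each one enters a library was not tested.

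The 5p strands of mir-17 and mir-20a belong to the miR-17 family, which represses inhibitors of the cell cycle such as Cdkn1a and the pro-apoptotic gene Bcl2l11. The level of miR-20a-5p was 11778 CPM in MNP1, 8283 in MNP2 and 6694 in MNP6, and 9828 in MWK1, 9265 in MWK2 and 10743 in MWK6. MNP1 was the highest of all 6 libraries and MNP6 the lowest, so the groups overlapped. The means were 8918 ± 2601 and 9945 ± 746 CPM, with a fold change of -0.16 (SE 0.19, adjusted p = 0.59). This strand passed in 1 of 17 alternatives, edgeR without MNP1 (fold change -0.40, adjusted p = 0.0285), within a range of 0.0285 to 0.941. Library totals turned its direction, to 0.033. For miR-17-5p the libraries read 1755, 1298 and 1174 CPM among nephron progenitors against 1485, 1498 and 1622 CPM in whole kidney, with MNP1 again the highest of all and the other nephron progenitor libraries the lowest. Its fold change was -0.12 (SE 0.19, adjusted p = 0.67), -0.31 without MNP1 and 0.072 with library totals. miR-20a-5p was thus the major product of the family here, with 36.1 ± 3.99% of the cluster's counts in nephron progenitors, compared with 38.5 ± 0.563% in whole kidney, against 5.75 ± 0.189% and 5.95 ± 0.206% for miR-17-5p.

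These strands are nearly the same in sequence, and the mature and hairpin forms are shown to set their likeness beside their unlike levels. Sequences are from RefSeq (GRCm38.p6), in lower case with the seed, bases 2 to 8, in capitals.
miR-17-5p: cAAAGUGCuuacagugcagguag
miR-20a-5p: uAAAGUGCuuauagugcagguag
Counted from 1 at the 5′ end, miR-17-5p and miR-20a-5p differ by C1U and C12U, both outside the seed, so a read that covers either position tells them apart. In the hairpins, with both mature arms in capitals, the 5p arm comes first and the 3p arm follows the loop.
mir-17: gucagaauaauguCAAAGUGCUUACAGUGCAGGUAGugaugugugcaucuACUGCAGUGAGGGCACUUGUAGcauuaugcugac
mir-20a: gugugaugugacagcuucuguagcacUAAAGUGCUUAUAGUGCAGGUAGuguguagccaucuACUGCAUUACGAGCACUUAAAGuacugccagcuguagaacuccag

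Both hairpins gave far more 5p than 3p strand, but to unlike degrees. The 3p strand of mir-17 stood at 308, 203 and 215 CPM over the nephron progenitor libraries, against 210, 173 and 213 CPM over those of whole kidney. MNP1 alone was far above the rest and the groups overlapped (fold change 0.28, SE 0.24, adjusted p = 0.42; 0.075 without MNP1 and 0.47 with library totals). The 3p strand of mir-20a was near the floor in every library, with 2, 4 and 1 counts among nephron progenitors against 2, 1 and 6 counts for whole kidney. Any difference in miR-20a-3p was not detectable at this depth.

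miR-18a has a seed of its own within the cluster and represses, among others, the gene Ccn2. The level of miR-18a-5p was 234 CPM in MNP1, 159 in MNP2 and 176 in MNP6, and 319 in MWK1, 283 in MWK2 and 316 in MWK6. Every nephron progenitor library lay below every whole kidney library, MNP1 included. The means were 190 ± 39.2 and 306 ± 19.6 CPM, and miR-18a-5p was lower in nephron progenitors with a fold change of -0.69 (SE 0.22, adjusted p = 0.027). This rested on 67 to 108 counts a library. The fold change was negative in each of 17 alternatives, from -0.86 to -0.49, and past the threshold in 10 of them (adjusted p 0.00512 to 0.113). Leaving out a single library ended the call in 4 of 6 cases, with an adjusted p of 0.106 without MNP2, 0.104 without MWK1, 0.0574 without MWK2 and 0.0722 without MWK6. Without MNP1 the difference was larger (-0.86, adjusted p = 0.00512), and with library totals it did not pass (-0.49, adjusted p = 0.113). On the 4 numbered libraries miR-18a-5p did not pass with or without the replicate block (adjusted p = 0.0525 and 0.104). Its other arm, miR-18a-3p, had 7 to 9 counts in each library, at 17.4 to 23.6 CPM among nephron progenitors against 21.0 to 26.3 CPM in whole kidney, and did not pass (fold change -0.20, SE 0.40, adjusted p = 0.76).

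The miR-19 family has a strand from each of the hairpins mir-19a and mir-19b-1. The level of miR-19a-3p was 138 CPM in MNP1, 113 in MNP2 and 108 in MNP6, and 195 in MWK1, 189 in MWK2 and 178 in MWK6. The groups did not overlap, with every nephron progenitor library below whole kidney. The means were 120 ± 16.0 and 188 ± 8.65 CPM, and miR-19a-3p was lower in nephron progenitors with a fold change of -0.65 (SE 0.23, adjusted p = 0.038), on 41 to 65 counts a library. It was negative in all 17 alternatives (-0.75 to -0.45) and past the threshold in 8, with an adjusted p of 0.0229 to 0.14. The call was lost without MNP2 (adjusted p = 0.104), MWK1 (0.122), MWK2 (0.105) or MWK6 (0.0601), with DESeq2 (0.104), with library totals (0.14), when the counts of all rows of a mature name were summed (0.0556), and on the 4 numbered libraries with and without the replicate block (0.0505 and 0.0582). Without MNP1 the fold change was -0.75 (adjusted p = 0.0229).

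miR-19b-3p was the more abundant of the pair, at 647, 544 and 439 CPM over the nephron progenitor libraries, against 631, 740 and 634 CPM over those of whole kidney. MNP1 lay among the whole kidney libraries and the other nephron progenitor libraries below them. Its fold change was -0.30 (SE 0.20, adjusted p = 0.31), -0.44 without MNP1 and -0.097 with library totals. Whether the changes of miR-19a-3p and miR-19b-3p differ was not tested. The mature strands are shown because they differ at a single position yet stood at unlike levels.
miR-19a-3p: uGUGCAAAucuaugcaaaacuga
miR-19b-3p: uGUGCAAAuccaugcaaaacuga
The substitution from miR-19a-3p to miR-19b-3p is U11C, counted from the 5′ end and outside the seed. The table lists miR-19b-3p once for each of its hairpins, and the count for mir-19b-2 was 100% to 102% of that for mir-19b-1 in every library, from 0 to 4 counts apart, so the rows hold nearly the same counts and do not tell the loci apart.

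miR-92a is the last hairpin of the cluster, and its 3p strand, of the miR-92 family, represses the integrin gene Itga5 in endothelial cells. It was the most abundant strand of the cluster and ranked 17 of all tested miRNAs by mean CPM. Its level was 15158 CPM in MNP1, 11360 in MNP2 and 12330 in MNP6, and 12353 in MWK1, 12063 in MWK2 and 14337 in MWK6. MNP1 and MNP2 were the highest and lowest of all 6 libraries, and the groups overlapped. The means were 12949 ± 1973 and 12918 ± 1238 CPM, with a fold change of 0.0034 (SE 0.15, adjusted p = 0.99) that was -0.12 without MNP1 and 0.20 with library totals (adjusted p = 0.331). The row of the table for mir-92a-2 held 8.52 to 10.2% of the count of the row for mir-92a-1, for example 624 against 6158 counts in MNP1, unlike the nearly equal rows of miR-19b-3p, and the higher row was used.

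The 5p strand of mir-92a-1 lay on the other side. The level of miR-92a-1-5p was 83.7 CPM in MNP1, 63.2 in MNP2 and 60.4 in MNP6, and 48.1 in MWK1, 31.5 in MWK2 and 40.9 in MWK6. Every nephron progenitor library lay above every whole kidney library, on 10 to 34 counts each. The means were 69.1 ± 12.7 and 40.2 ± 8.34 CPM, and the fold change of 0.77 (SE 0.30) had an adjusted p of 0.057, short of the threshold. It passed in 1 of 16 alternatives, library totals (0.97, adjusted p = 0.0184), within a range of 0.0184 to 0.216; without MNP1 the fold change was 0.62 (adjusted p = 0.168).
miR-18a-5p: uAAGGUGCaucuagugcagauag
miR-92a-3p: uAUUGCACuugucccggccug
miR-92a-1-5p: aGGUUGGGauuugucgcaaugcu
These strands are shown, with their seeds in capitals, because their levels or shares are described above, and none of the 3 shares its seed with another strand of the cluster.

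Shares within the cluster do not depend on how libraries are scaled. By share the groups did not overlap for the 3 strands whose levels also did not, nor for miR-17-3p, whose levels overlapped. The share of miR-18a-5p in the cluster's counts was 0.776%, 0.721% and 0.829% over the nephron progenitor libraries, against 1.27%, 1.17% and 1.12% over those of whole kidney. For miR-19a-3p the shares were 0.458%, 0.514% and 0.508%, against 0.779%, 0.778% and 0.634%. Both were lower in every nephron progenitor library than in any whole kidney library. The order was opposite for miR-92a-1-5p, at 0.278%, 0.286% and 0.285% against 0.192%, 0.13% and 0.145%, and for miR-17-3p, at 1.02%, 0.919% and 1.02% against 0.839%, 0.713% and 0.758%. Each of these 4 had an exact permutation p of 0.1, the smallest possible, and 0.25 after Benjamini-Hochberg adjustment over the 10 strands. Such shares were not computed for other miRNAs. In CPM the groups did not overlap for 46.7% of all tested, so 4 of 10 is not shown to be unusual. The groups overlapped for the other strands. Among these, miR-92a-3p held 50.3%, 51.5% and 58.1% against 49.2%, 49.7% and 51.0% (exact p = 0.2, adjusted 0.33), and the wide spread in nephron progenitors came from MNP6, where miR-92a-3p reached 58.1% (Wilson 95% interval 57.0 to 59.2%) and miR-20a-5p was at 31.5% (30.5 to 32.6%). Without MNP6 the difference between the groups was 0.951 percentage points for miR-92a-3p and -0.179 for miR-20a-5p, against 3.34 and -2.44 with it.

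The balance of the arms was compared for the 4 hairpins with both strands counted. For mir-17 the 3p strand made up 14.9% (Wilson 95% interval 12.7 to 17.5%), 13.5% (11.1 to 16.3%) and 15.5% (12.7 to 18.8%) of the hairpin's counts over the nephron progenitor libraries. Over whole kidney it was 12.4% (9.94 to 15.4%), 10.4% (8.04 to 13.2%) and 11.6% (9.35 to 14.4%). The means were 14.6 ± 1.03% and 11.5 ± 1.04%, with every nephron progenitor library above whole kidney although the intervals of single libraries overlap. The 5p strand of mir-92a-1 made up 0.549%, 0.553% and 0.488% in nephron progenitors, against 0.388%, 0.260% and 0.285% in whole kidney (0.530 ± 0.037% and 0.311 ± 0.068%), again with no overlap. These shares rest on all counts of miR-92a-3p, which can also come from mir-92a-2. For mir-18a the 3p strand was at 7.77%, 9.88% and 11.8% against 6.19%, 7.22% and 7.69%, with MNP1 just above the highest whole kidney library and only 7 to 9 counts behind each value. Its difference of 2.79 percentage points was 1.79 without MNP6 and 3.82 without MNP1. These 3 hairpins had an exact permutation p of 0.1 each, and 0.13 adjusted over the 4. The minor arm of mir-20a, with 1 to 6 counts a library, overlapped (0.062 ± 0.037% and 0.086 ± 0.068%, exact p = 0.7). So the minor strand held a larger share in every nephron progenitor library for 3 of 4 hairpins of the cluster, and the same was true of 27 of the 147 table entries that pair 2 mature strands under 1 hairpin name, with more than 10 counts of the minor one (18.4%). Some of these repeat a pair or join strands of the same arm; with a 5p and a 3p strand required and each pair entered once it was 27 pairs (19.0%), while 17 were lower without overlap and the median difference was 0.18 percentage points. The counts over all hairpins were added after the values were seen.

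**Figure D3:**
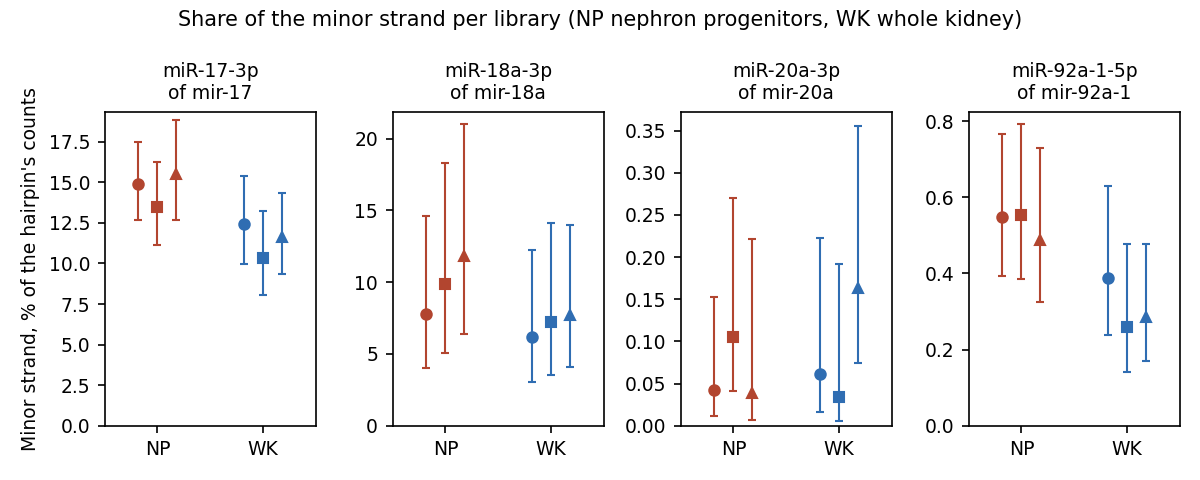
Share of the minor strand in the counts of its hairpin, in percent, for each library of nephron progenitors (NP, red) and whole kidney (WK, blue), with 1 symbol per library (circle 1, square 2, triangle 6) and bars for the Wilson 95% interval. The nephron progenitor libraries lie above whole kidney for mir-17, mir-18a and mir-92a-1 and overlap it for mir-20a.

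Grouped by seed, the 10 strands fall into 8 groups, and 431 of the 525 tested miRNAs had a RefSeq sequence from which to find others with the same seed. The AAAGUGC seed of miR-17-5p and miR-20a-5p summed to 10328 ± 2905 CPM among nephron progenitors against 11480 ± 814 CPM in whole kidney (exact permutation p = 0.5), a log2 ratio of -0.15 that was -0.39 without MNP1 and 0.038 with library totals. It is shared with 4 others, miR-106a-5p, miR-106b-5p, miR-20b-5p and miR-93-5p, and the cluster gave 79.5 ± 0.589% of all 6 in nephron progenitors, compared with 79.2 ± 0.907% in whole kidney. The GUGCAAA seed, found among these sequences in miR-19a-3p and miR-19b-3p alone, summed to 785, 658 and 546 CPM over the nephron progenitor libraries, against 827, 929 and 812 CPM over those of whole kidney. The nephron progenitor libraries were all lower, MNP1 by a narrow margin (663 ± 119 and 856 ± 63.4 CPM, log2 ratio -0.37, exact permutation p = 0.1, adjusted 0.27 over the 8 groups). Without MNP1 this ratio was -0.50, and with library totals it was -0.17 (exact permutation p = 0.3), so the separation of the groups depends on the scaling. The AAGGUGC seed joins miR-18a-5p with miR-18b-5p, and the cluster's strand made up 97.5 ± 0.432% of the pair in nephron progenitors, compared with 92.4 ± 0.917% in whole kidney. The AUUGCAC seed of miR-92a-3p is also that of miR-25-3p, miR-32-5p, miR-363-3p and miR-92b-3p, and miR-92a-3p gave 69.7 ± 1.29% and 70.3 ± 1.18% of the 5. The other 4 strands, miR-17-3p, miR-18a-3p, miR-20a-3p and miR-92a-1-5p, shared their seeds with no other sequence in hand.

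The related cluster on chromosome X, which carries mir-106a, mir-18b, mir-20b and mir-363 beside mir-19b-2 and mir-92a-2, stood far lower than the chromosome 14 cluster and differed between the groups. Its 5 strands that no other locus gives (those of miR-106a, miR-18b, miR-20b and miR-363) held 21, 18 and 20 counts over the nephron progenitor libraries, against 93, 81 and 78 counts over those of whole kidney. In summed CPM this was 47.8 ± 7.47 and 254 ± 25.8, with no overlap. All 5 of 5 were lower in nephron progenitors in edgeR (median fold change -2.31), against 17.1% of all tested. Of these, miR-106a-5p, miR-18b-5p and miR-363-5p passed the filter on low counts only through whole kidney, where they were high. Their direction was thus favoured by the filter, and their calls add no support to this tally. Of the 5, 4 were lower in all 16 alternatives. The exception, miR-363-5p, did not pass without MNP2, MWK1 or MWK2 (adjusted p = 0.0522, 0.0659 and 0.0567). The most abundant over all libraries, miR-363-3p, which has the seed of miR-92a-3p, read 19.7, 15.2 and 13.1 CPM among nephron progenitors against 147, 107 and 108 CPM in whole kidney. Every whole kidney library was several times above every nephron progenitor library (fold change -2.89, SE 0.31, adjusted p = 1.4e-05). miR-20b-5p, with the seed of miR-20a-5p, read 27.1, 13.1 and 13.1 CPM against 51.1, 63.0 and 49.7 CPM (fold change -1.60, SE 0.37, adjusted p = 0.0041). The remaining strands were at or near the floor in nephron progenitors, with 0, 1 and 3 counts for miR-106a-5p and 2, 2 and 2 counts for miR-18b-5p, against 6, 10 and 8 counts and 10, 7 and 8 counts in whole kidney. For miR-363-5p there were 0, 2 and 5 counts against 11, 10 and 8 counts. The fold change of miR-363-5p was -2.31, and it was -3.52 without MNP6 and -1.76 without MNP1.

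Sequences of paralogous strands are given beside the cluster's because each shares its seed with a strand of the cluster and was lower in nephron progenitors.
miR-20b-5p: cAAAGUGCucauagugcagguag
miR-18b-5p: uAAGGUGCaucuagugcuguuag
miR-363-3p: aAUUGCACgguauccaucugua
From miR-20a-5p to miR-20b-5p the substitutions are U1C and U10C, and from miR-18a-5p to miR-18b-5p they are A18U and A20U, so both pairs keep the seed. miR-18a-5p and its chromosome X relative were both lower in nephron progenitors, whereas miR-20a-5p did not pass and miR-20b-5p did. Whether the fold changes of a pair differ was not tested.

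The third cluster, with mir-106b, mir-93 and mir-25 on chromosome 5, was closer to the chromosome 14 cluster in level. Of its 6 strands 1 was higher in nephron progenitors, 0 were lower and 5 did not pass, with a median fold change of 0.018, where 19.4% of all tested were higher. The groups did not overlap for 2, miR-25-5p and miR-106b-5p, against 46.7% of all tested. The most abundant, miR-25-3p, stood at 5397 ± 860 and 4862 ± 241 CPM (fold change 0.15, SE 0.16, adjusted p = 0.53; 0.017 without MNP1 and 0.35 with library totals). It differs from miR-92a-3p over their shared length by U1C, C14U and C18U. miR-93-5p, of the miR-17 family, stood at 2287 ± 585 and 2522 ± 220 CPM, with a fold change of -0.14 (adjusted p = 0.64) that was -0.36 without MNP1 and turned to 0.053 with library totals. miR-106b-3p stood at 477 ± 25.1 and 516 ± 37.2 CPM (fold change -0.11, adjusted p = 0.70, and 0.091 with library totals). miR-106b-5p was lower in every nephron progenitor library, at 386, 394 and 244 CPM against 397, 400 and 433 CPM, by a narrow margin except in MNP6, and did not pass (fold change -0.26, SE 0.23, adjusted p = 0.44). Its fold change was -0.11 without MNP6, -0.40 without MNP2 and -0.066 with library totals. The strand that rose was miR-25-5p, the minor arm of its hairpin, at 108, 78.4 and 131 CPM against 57.1, 37.8 and 64.3 CPM (fold change 0.98, SE 0.30, adjusted p = 0.021). It lost its call without MNP6 (adjusted p = 0.0685), MWK1 (0.0659) or MWK2 (0.113), within a range of 0.011 to 0.113. The call was also lost on the 4 numbered libraries without the replicate block (adjusted p = 0.0896). Of the 3 hairpins of this cluster, mir-25 alone had its minor strand at a larger share in every nephron progenitor library, 1.95 ± 0.581% against 1.08 ± 0.25%. The groups overlapped for mir-93 (0.662 ± 0.302% against 0.438 ± 0.062%) and for mir-106b (43.9%, 46.8% and 33.3% against 45.2%, 43.8% and 43.8%), where MNP6 alone was far below the rest.

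Ratios within a library set the chromosome 14 cluster against its relatives free of scaling, using its 8 strands that no other locus gives; these ratios were chosen after the values were seen. The log2 ratio of chromosome 14 to chromosome X counts was 8.11, 8.02 and 7.33 over the nephron progenitor libraries, against 5.44, 5.49 and 5.85 over those of whole kidney. Every nephron progenitor library was higher, by 2.23 on average (exact permutation p = 0.1, also 0.1 when adjusted over both ratios). The difference was 2.08 without MNP1 and at most 2.47 when any single library was left out. The log2 ratio of chromosome 14 to chromosome 5 counts was 0.47, 0.35 and 0.16 in nephron progenitors, against 0.60, 0.48 and 0.55 in whole kidney. The nephron progenitor libraries were all lower, with a mean difference of -0.22 (exact permutation p = 0.1, adjusted 0.1), and the difference ranged from -0.29 without MNP1 to -0.14 without MNP6.

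**Figure D4:**
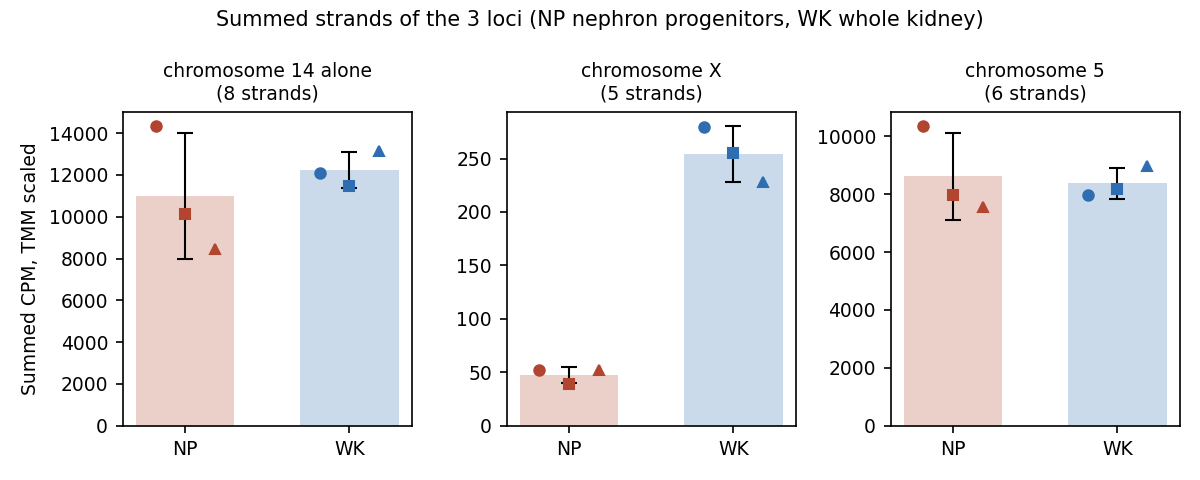
Summed CPM of the strands that only 1 locus gives, for the clusters on chromosomes 14, X and 5, in nephron progenitors (NP, red) and whole kidney (WK, blue). Bars are group means, error bars are SD over 3 libraries and symbols are libraries (circle 1, square 2, triangle 6); each panel has its own axis from 0, and the groups are apart for chromosome X alone.

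Over the 6 libraries, the summed level of the chromosome 14 cluster was most like that of miR-3535 (Pearson r = 0.89), followed by miR-181c-3p (0.87), miR-191-5p (0.81), miR-10b-5p (0.79) and miR-196b-5p (0.77), among miRNAs outside the 3 clusters with a mean of at least 50 counts. None of these 5 was past the threshold between the groups. For the strands of the related clusters, with no minimum of counts, r ran from -0.21 for miR-363-5p to 0.95 for miR-93-5p. It was 0.56 and 0.60 for miR-106b-3p and miR-106b-5p and 0.72 for miR-25-3p. All values come from the same 6 libraries and share their scaling, and MNP1 was the highest library of the sum.

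Strands that mark other kidney cells moved between the groups, and their part in the results of the cluster was not tested. Of all tested miRNAs 17.1% were lower, the share to set beside each count of lower strands here. Epithelial strands (the miR-200 family, miR-141 included) were lower for 7 of 7, summing to 226, 385 and 89.3 CPM over the nephron progenitor libraries, against 23970, 25408 and 21860 CPM over those of whole kidney. In nephron progenitors this was 0.984% of the whole kidney level, with 2 strands at 0 in every library, the most abundant, miR-200a-3p, at 105 against 12443 CPM and the defining miR-200c-3p at 8.05 against 824 CPM. Endothelial strands, of miR-126a, were lower for 2 of 2, at 418, 595 and 578 CPM against 20128, 21306 and 18172 CPM, of which miR-126a-3p made up 501 and 18829 CPM. Both marker groups were at under 3% of their whole kidney level, and what this means for the cluster strands was not tested. Erythroid strands, led by miR-451a (100.2 against 570 CPM), were lower for 3 of 3, at 234, 161 and 81.4 CPM against 1130, 1121 and 573 CPM. Smooth muscle and pericyte strands were lower for 2 of 4, against 17.1% of all tested. Their sums were 21794, 28633 and 26081 CPM against 61191, 72018 and 57876 CPM, led by miR-143-3p (24990 and 62802 CPM), with the defining miR-145a-5p at 111 and 406 CPM. Tubule strands were also lower for 2 of 4, against 17.1% of all tested. Their sums were 879, 854 and 1069 CPM against 2865, 2928 and 2119 CPM, led by miR-192-5p (476 and 2058 CPM).

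Markers of other cells remained in the nephron progenitor fraction. Stromal strands, led by miR-199a-3p (8181 and 6993 CPM), were higher for 1 of 6, near the 19.4% of all tested that were higher. Their sums were 22210, 29558 and 33426 CPM over the nephron progenitor libraries, against 21886, 23601 and 22345 CPM over those of whole kidney. The strand called higher was miR-199b-5p (means of 3284 against 1901 CPM, adjusted p = 0.0019), and miR-199a-3p did not pass. The counts of miR-199a-3p and miR-199b-3p were identical in every library, so this sum holds the same counts under both names. With these entered once, a choice made after the values were seen, the sums were 15519.9, 20897 and 24236 CPM against 15113, 16137 and 15603 CPM. MNP1, the library with the most of the cluster, had the least of these strands among the nephron progenitors. A link between these levels was not tested. Leukocyte strands, led by miR-142a-3p (49.8 and 30.3 CPM, adjusted p = 0.26), were higher for 1 of 5, also near the 19.4% of all tested. Their sums were 135, 152 and 70.9 CPM against 87.2, 100.7 and 61.4 CPM, and the groups overlapped. The strand called higher was miR-223-5p, at 9.85, 17.4 and 18.4 CPM and at 0 in every whole kidney library (adjusted p = 0.0050), near the floor. No miRNA list for nephron progenitors themselves was used, so the group is called by its label.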

How the data were processed

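Per the labels and methods, the authors trimmed reads with BBDuk, aligned them to mm10 with Bowtie2 2.2.3 and quantified known miRBase miRNAs with miRDeep2. They deposited expected counts, not normalized, with 792 rows for pairs of a mature miRNA and a hairpin; 3 rows held fractions. These were rounded to whole numbers, although the test had been planned for counts, and the highest row per mature name and library was kept. Those with over 10 counts in all were scaled by TMM and tested in edgeR 4.0.16 (quasi-likelihood, group only, R 4.3.3), with Benjamini-Hochberg adjustment over 525 miRNAs and a threshold of 0.05, a procedure tested on simulated data. SE is the fold change over the square root of F. Shares, arm balance, seed sums and locus ratios used exact two-sided permutation tests (scipy 1.17.1). Alternatives were DESeq2 1.42.0, limma-voom (limma 3.58.1), other scalings, filters and row rules, and each library left out. Named miRNAs were all strands of the 6 stems and, from the related clusters, the most abundant of each hairpin and those whose calls are described, plus the 5 most correlated with the summed level (log2 CPM, prior count 2). Members and lists were chosen with earlier results of these data known. Locus and host gene positions are from the mm10 annotation, and figures were drawn with matplotlib 3.10.9.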

Additional observations from a re-analysis of the deposited data

How the results depend on the processing

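Of 571 values recomputed, 509 kept their direction and side of the threshold or stayed within the spread, 24 turned direction, 23 lost and 2 gained a call and 13 moved; causes were not tested unless given. Cluster strands past the threshold, 2 in the report, numbered 1 with library totals (miR-92a-1-5p, higher), 1 with sums over rows, 1 with DESeq2 and 0 to 3 with a library left out (3 without MNP1, 0 without MNP2, MWK1, MWK2 or MWK6, which also leaves fewer libraries). The replicate block was fitted on the 4 libraries with a replicate number and left 0 strands past the threshold, as did no block on the same 4; over all miRNAs it had 75 higher and 83 lower, against 58 and 76 without it. The differences between replicates 1 and 2 of each group correlated at 0.039 across miRNAs. A single pair of differences cannot show whether the libraries are paired. Chromosome 5 strands past it, 1 in the report, were 0 without the block on 4 libraries and 0 to 1 with a library left out; chromosome X strands, 5, were 4 to 5, in alternatives added after seeing the data. Library totals turned the fold change of miR-17-5p to 0.072, miR-18a-3p to 0.00086, miR-20a-5p to 0.033, miR-106b-3p to 0.091 and miR-93-5p to 0.053, and the log2 ratio of the summed cluster to 0.12, of AAAGUGC to 0.038 and of CUGCCCU to 0.019. With the block and without it on 4 libraries, miR-20a-5p gave 0.019 and 0.035, and miR-93-5p 0.027 and 0.041. miR-92a-3p gave -0.0049 with limma-voom. Leaving out a library gave log2 values of -0.12 to 0.092 for miR-92a-3p, -0.20 to 0.83 for miR-93-3p, -1.27 to 0.25 for CUGCAUU and -0.12 to 0.092 for AUUGCAC. In percentage points the ranges were -0.017 to 0.0058 for the share of miR-18a-3p, -0.020 to 0.0043 for that of miR-20a-3p and -0.050 to 0.014 for the minor arm of mir-20a, all on few counts. Without miR-19b-3p and miR-92a-3p the summed log2 ratio was -0.16. Requiring over 10 counts in each library kept no chromosome X strand. Depth limits miR-20a-3p, miR-18a-3p and the chromosome X strands in nephron progenitors.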
